A study of Mus musculus with 32 samples.

Results

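Tal1, Lmo2, Gfi1b, Runx1, Myb, Spi1, Bcl11a, Kit, Adgrg1 and Cd47 were taken by name from the deposited expression tables as a list of regulators and surface molecules of blood progenitors. They are 10 of the 23154 genes measured. Single cells were picked from the liver, lung, intestine, heart, skin, somite, hindbrain and forebrain of 7 C57BL/6J mouse embryos with no treatment in the labels, namely 3 of E9.5, 2 of E10.5 and 2 of E11.5. Each embryo gave several organs. E9.5 embryo 2 is labelled female and every other embryo male. The libraries of E9.5 embryos 1 and 2 are labelled HiSeq 2500 and all others HiSeq 4000. Lung with liver, and skin with intestine and somite, were pooled for E9.5 embryo 3, from which no brain cells entered. The authors divided the cells by the activity of transcription factor networks into hematopoietic (HC, 249 cells), neuronal (NC, 384 cells), epithelial (EC, 307 cells) and mesoderm-derived (MC, 875 cells) groups, which are used here for 1815 of 1916 cells.

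Blood cells arise in waves in the mouse embryo: primitive erythroid cells and macrophages come first from the yolk sac, and erythro-myeloid progenitors then seed the fetal liver and give definitive erythroid, megakaryocyte and myeloid cells. Tal1, Lmo2 and Gata1 proteins meet in a complex on erythroid genes, Gfi1b represses genes in the erythroid and megakaryocyte lineages, and Spi1 (PU.1) drives the myeloid lineages. Runx1 is required for definitive blood cells to emerge from endothelium, and Myb for the definitive progenitors of the liver, while Bcl11a silences embryonic globin genes in definitive erythroid cells. Kit is the receptor of stem cell factor (Kitl), Adgrg1 (GPR56) is an adhesion G protein-coupled receptor of blood progenitors and neural precursors, and Cd47 is a surface protein that restrains phagocytosis.

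The proximal promoters of the members are shown because several members were detected in the same cells. RefSeq promoters of GRCm38.p6, from 250 bases before to 50 bases after the start, were found for 8 of the 10 members (13 promoters). They were searched on both strands for the GATA motif AGATAA, the Tal1 E-box CAGATG, the RUNX motif TGTGGT and the PU.1 motif GAGGAAGT. Of 32851 promoters of the same length, 11.2% held the GATA motif, 17.2% the E-box, 16.8% the RUNX motif and 3.20% the PU.1 motif. Tal1 is shown for its GATA motif and E-box, Myb for its E-box, and Runx1 for its RUNX motif at the distal start. Gfi1b is shown as a promoter without a match to the exact letters of any of the 4. Related forms were not searched, such as TGATAA, which the Gfi1b promoter holds, so a missing match does not show that a site is absent. Capitals mark the matches, which stand here as reverse complements of the motifs.
Tal1, chr4:115056176-115056475, plus strand: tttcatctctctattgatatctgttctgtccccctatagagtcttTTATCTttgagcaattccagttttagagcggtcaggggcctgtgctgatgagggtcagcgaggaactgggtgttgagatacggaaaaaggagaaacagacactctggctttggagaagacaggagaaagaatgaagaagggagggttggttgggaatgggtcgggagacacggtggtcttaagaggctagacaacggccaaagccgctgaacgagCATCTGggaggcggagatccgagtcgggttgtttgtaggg
Myb, chr10:21160935-21161234, minus strand: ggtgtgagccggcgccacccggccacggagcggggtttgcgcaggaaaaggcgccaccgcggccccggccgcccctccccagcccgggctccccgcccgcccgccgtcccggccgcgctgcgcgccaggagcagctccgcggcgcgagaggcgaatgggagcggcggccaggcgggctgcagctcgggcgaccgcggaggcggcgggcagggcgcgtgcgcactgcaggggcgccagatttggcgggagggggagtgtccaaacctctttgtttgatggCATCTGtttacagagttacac
Runx1, chr16:92826025-92826324, minus strand: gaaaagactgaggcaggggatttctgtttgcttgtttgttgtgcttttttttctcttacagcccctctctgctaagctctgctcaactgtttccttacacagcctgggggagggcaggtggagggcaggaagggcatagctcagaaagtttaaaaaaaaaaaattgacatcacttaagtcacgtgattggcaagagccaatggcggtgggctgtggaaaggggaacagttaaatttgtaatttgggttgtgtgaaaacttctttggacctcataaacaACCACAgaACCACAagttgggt
Gfi1b, chr2:28621933-28622232, minus strand: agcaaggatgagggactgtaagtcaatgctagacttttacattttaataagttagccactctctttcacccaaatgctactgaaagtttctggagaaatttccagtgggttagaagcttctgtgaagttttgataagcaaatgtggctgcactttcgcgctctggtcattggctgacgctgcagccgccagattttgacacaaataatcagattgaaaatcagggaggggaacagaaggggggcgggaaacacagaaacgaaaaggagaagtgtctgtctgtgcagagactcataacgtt
These letters matched in 1 promoter each of Tal1, Myb and Runx1, and in none of the 10 other promoters of the members. The other promoter of Tal1, at chr4:115057561-115057860, and that of Runx1, at chr16:92697280-92697579, held no match.

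All 10 members are protein-coding genes of GENCODE M21 (GRCm38). Tal1 lies on chromosome 4 from 115056426 to 115071755, and Lmo2 on chromosome 2 from 103957986 to 103981878. Gfi1b lies on chromosome 2 from 28609450 to 28621982, and Runx1 on chromosome 16 from 92601466 to 92826149. Spi1 lies on chromosome 2 from 91082390 to 91115756, and Myb on chromosome 10 from 21124935 to 21160984. Bcl11a lies on chromosome 11 from 24078056 to 24174123, and Kit on chromosome 5 from 75574916 to 75656722. Adgrg1 lies on chromosome 8 from 94974751 to 95014217, and Cd47 on chromosome 16 from 49800533 to 49915010.

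A value is the share of a cell's UMIs (unique molecular identifiers, which count RNA molecules) that fell on a gene, scaled to 1000000 and named TPM by the authors, and levels are means of log2(TPM/10 + 1) over the cells of an embryo. Because 10 is added to TPM on this scale, a difference understates the change of a low gene. A cell was taken as expressing a gene at 1 or more, which is 10 TPM. UMI totals of the grouped cells ran from 20326 to 2524348, with medians of 438183 in HC, 252307 in NC, 301723 in EC and 309699 in MC cells. Totals per sample ran from 3968209 to 52138922 UMIs over 13 to 96 cells, and samples shared 0 cell names. Of the marker lists chosen here to describe the groups, the epithelial list reached 4.44 ± 0.20 (SD, n = 7) in EC, the mesenchymal list 2.97 ± 0.59 (SD, n = 7) in MC and the neural list 2.88 ± 0.51 (SD, n = 6) in NC cells. The primitive erythroid list of 5 genes, which holds embryonic globins and Tuba1a, a gene that neurons also use, reached 4.95 ± 2.04 (SD, n = 7) in HC cells and also 4.37 ± 1.49 (SD, n = 6) in NC cells.

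Tal1, Lmo2, Gfi1b and Runx1 set the HC cells apart from the other 3 groups in every embryo. For these 4 of 10 members, each HC embryo mean was above each embryo mean of NC, EC and MC, against 1.77% of 17432 genes. Because the network activities that formed the groups use such genes, these levels describe the HC group and were not tested. The median over the members of the HC level minus the mean of the other groups was 1.15, and that over all genes was −0.03.

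The partners of the erythroid complex were high in HC cells and low in the other groups. Tal1 levels in HC cells were 3.33, 2.90 and 1.95 in E9.5 embryos 1, 2 and 3, 2.28 and 2.13 at E10.5, and 2.52 and 2.20 at E11.5. Lmo2 levels in the same order were 2.38, 1.34, 3.40, 3.26, 3.53, 3.28 and 3.15, with its lowest value in E9.5 embryo 2. The highest embryo mean of any other group was 0.17 for Tal1 (MC) and 0.55 for Lmo2 (NC). Tal1 was expressed in 80.7% of HC cells (Wilson 95% interval 75.4 to 85.1) and in 0.521% of NC, 0.977% of EC and 3.43% of MC cells. Lmo2 was expressed in 82.7% of HC, 8.33% of NC, 2.93% of EC and 5.83% of MC cells.

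Gfi1b, the erythroid and megakaryocyte repressor, ran from 2.22 to 4.35 over HC embryos, with 4.35 in E9.5 embryo 1, which gave only 3 HC cells. It averaged 121 ± 49.5 TPM in HC cells (SD, n = 7) and 0.0726 ± 0.0645 (SD, n = 6) in NC, 0.450 ± 0.369 in EC and 0.430 ± 0.520 in MC cells (SD, n = 7 each). None of 384 NC cells expressed it, which allows a share of up to 0.781%. Runx1 levels in HC cells were 0.57, 0.95 and 1.91 at E9.5, 2.04 and 1.75 at E10.5, and 0.74 and 1.40 at E11.5, against at most 0.35 in any other group. Runx1 was expressed in 56.2% of HC, 9.12% of EC, 7.66% of MC and 0.781% of NC cells.

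Myb, Kit and Bcl11a were near 0 in HC cells of E9.5 embryos 1 and 2 and higher in the other 5 embryos. The Myb level was 0 and 0.03 in those embryos, 1.34 in E9.5 embryo 3, and 0.62 to 1.68 at E10.5 and E11.5. Kit was at 0 and 0.01, then 1.01 in E9.5 embryo 3 and 0.45 to 1.82 later. Bcl11a was at 0 and 0.04, then 2.03 in E9.5 embryo 3 and 2.24 to 3.03 later. Spi1, at 0, 0.85 and 2.03 at E9.5 and 0.58 to 1.81 later, did not separate the embryos in this way. The HC cells of E9.5 embryos 1 and 2 came from organs other than the liver, whereas E9.5 embryo 3 gave 15 liver cells. Of the HC cells of E9.5 embryos 1 and 2, 3 of 3 and 15 of 19 fell in the primitive erythroid-like cluster described below. Embryo, platform label, organ and this makeup cannot be told apart at E9.5. Without E9.5 embryo 1, the number of members whose HC means all lay above the other groups was 5 in place of 4. The member gained was Spi1, with a lowest HC mean of 0.58 against at most 0.35 in the other groups.

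Bcl11a, Adgrg1, Kit and Cd47 were also expressed outside the blood group. Bcl11a averaged 1.82 ± 1.29 in HC (SD, n = 7), 1.92 ± 1.50 in NC (n = 6), 1.35 ± 0.53 in MC (n = 7) and 0.74 ± 0.69 in EC cells (n = 7), in that order NC, HC, MC and EC, with all neighbours within their spread. Adgrg1 was higher in NC (2.62 ± 0.66, n = 6) than in HC cells (2.08 ± 0.78, n = 7), which overlapped, then 1.05 ± 0.30 in EC and 0.13 ± 0.05 in MC cells. Kit was expressed in 41.8% of HC, 18.2% of EC, 18.0% of NC and 6.63% of MC cells. Cd47 was expressed in 93.6% of HC cells and in 48.7% to 60.3% of the other groups, where its levels ran from 1.08 to 2.65.

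**Figure D1:**
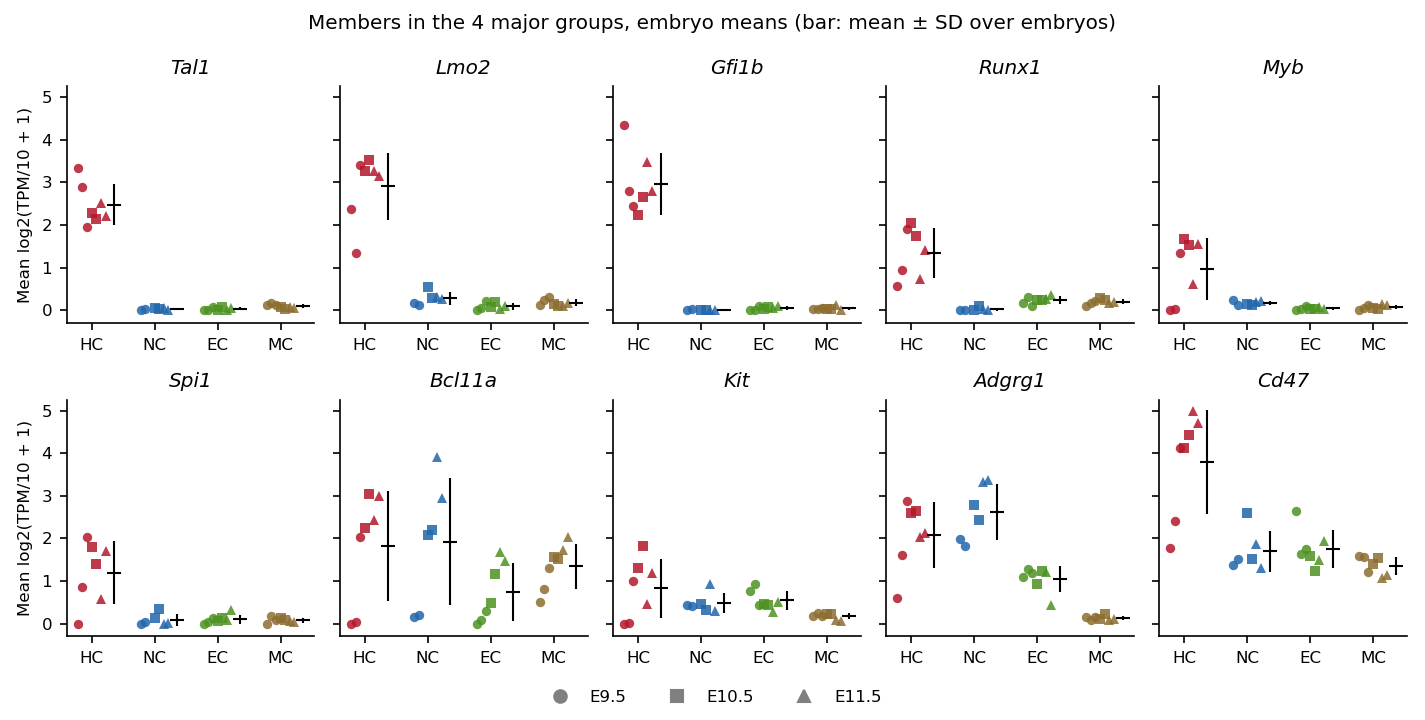
Level of each member, as mean log2(TPM/10 + 1) of an embryo (vertical axis), in the HC, NC, EC and MC groups (horizontal axis). Each point is 1 embryo with its day as the shape, and the bars give mean ± SD over 6 or 7 embryos. For Tal1, Lmo2, Gfi1b and Runx1 all HC points lie above all others, and Bcl11a and Adgrg1 reach similar levels in NC cells.

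Single cells held many members at once. An HC cell expressed a median of 7 of the 10 members (range 1 to 10), against 2 in NC, 2 in EC and 1 in MC cells. To compare cells at 1 depth, cells were thinned to 50000 UMIs, which left out 8 HC, 16 NC, 11 EC and 35 MC cells. After thinning, a UMI of Tal1 was seen in 71.4% of HC and 1.36% of NC cells, against 88.0% and 4.62% in the same cells before. A UMI of Gfi1b was seen in 75.1% of HC, 0% of NC, 2.03% of EC and 1.67% of MC cells after thinning, against 86.7%, 4.62%, 11.49% and 6.90% before.

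Among other hematopoietic transcription regulators, 6 of 30 lay above the other groups in every embryo: Gata1, Klf1, Lyl1, Nfe2, Ikzf1 and Zfpm1. Gata1, the erythroid partner of Tal1 and Lmo2, averaged 3.54 in HC and at most 0.06 in the other groups. Gata2, a regulator of early progenitors, averaged 0.48 in HC cells. Of 16 receptors, 3 did so: Epor and Csf2rb, which take up erythropoietin and myeloid cytokines, and Itga2b (CD41). None of 8 ligands and partners of Kit, Cd47 and Adgrg1 did. Kitl, the ligand of Kit, averaged 1.82 in EC, 1.10 in MC, 0.28 in NC and 0.15 in HC cells.

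HC cells were clustered again without the 10 members, because the study's own hematopoietic subclusters are not used here. Cluster names come from marker genes and are uncertain where markers are shared. The 5 clusters were a Gm15915-led cluster without a cell type name (103 cells, 101 from liver), definitive erythroid-like (36, all from liver), primitive erythroid-like (62, 24 from liver), macrophage-like (43, 18 from liver) and megakaryocyte-like cells (5, 1 from liver). Rgcc, Cd24a and Mt2 led the definitive erythroid-like cluster, which held Sox6 at 1.81 against 0.69 in the primitive erythroid-like cluster. Rhd (5.41 and 5.42) and Rhag (3.83 and 3.79) were alike in both, and the adult globins Hbb-bs and Hbb-bt were at 0.01 or below. The macrophage-like cluster also held the granulocyte and monocyte genes Mpo at 2.16 and Prtn3 at 2.56. Of its 18 liver cells, 10 expressed Mpo, 8 the macrophage gene C1qb and 13 the macrophage gene Cx3cr1. Of its 25 cells from other organs, 5, 23 and 23 did so. The name of this cluster is therefore less certain for its liver cells. The embryonic globin Hba-x was at 10.46 in the primitive erythroid-like cluster and at 3.99 to 6.29 in the others. The hepatoblast gene Afp averaged 0.91 to 3.45 over the 5 clusters, but was high in liver cells only. It was at 3.94 in liver and 0.07 in other organs in the primitive erythroid-like cluster, and at 3.93 and 0.36 in the macrophage-like cluster.

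Lmo2, Myb and Kit had their highest means in the Gm15915-led cluster. Myb was expressed in 84.5% of its cells, 30.6% of definitive erythroid-like, 4.84% of primitive erythroid-like and 25.6% of macrophage-like cells. Kit was expressed in 82.5%, 30.6%, 8.06% and 6.98% of the same clusters. A cell of the Gm15915-led cluster expressed a median of 9 members, against 7 in definitive erythroid-like, 6 in megakaryocyte-like, 5 in macrophage-like and 4 in primitive erythroid-like cells. With other cuts of the tree or with 2500 genes in place of 1500, the number of members highest in the cluster with most liver cells was 3 or 4.

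The globin regulator Bcl11a separated the erythroid-like clusters. It was at 3.82 in definitive and 0.69 in primitive erythroid-like cells, expressed in 97.2% and 21.0% of them, and at 3.57 in the Gm15915-led cluster. Gfi1b was at 4.18, 2.92 and 3.09 in the same order, and Tal1 at 2.75, 2.98 and 2.39. Adgrg1 was at 3.48 in the Gm15915-led cluster, 2.20 in definitive and 1.31 in primitive erythroid-like cells. Cd47 ran from 3.10 in primitive erythroid-like to 5.81 in megakaryocyte-like cells.

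Spi1 marked the macrophage-like cells. Its level there was 5.12, with 41 of 43 cells expressing it, against 0.91 in the Gm15915-led cluster and at most 0.55 elsewhere. The same cells held Tal1 at 0.72 and Gfi1b at 0.56. Runx1, in contrast, was at 2.24 in macrophage-like, 1.92 in Gm15915-led, 0.68 in definitive and 0.44 in primitive erythroid-like cells. In the 5 megakaryocyte-like cells Runx1 was at 4.20 and Adgrg1 at 4.64, and 0 of 5 expressed Myb, Kit or Bcl11a, which allows a share of up to 60%.

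**Figure D2:**
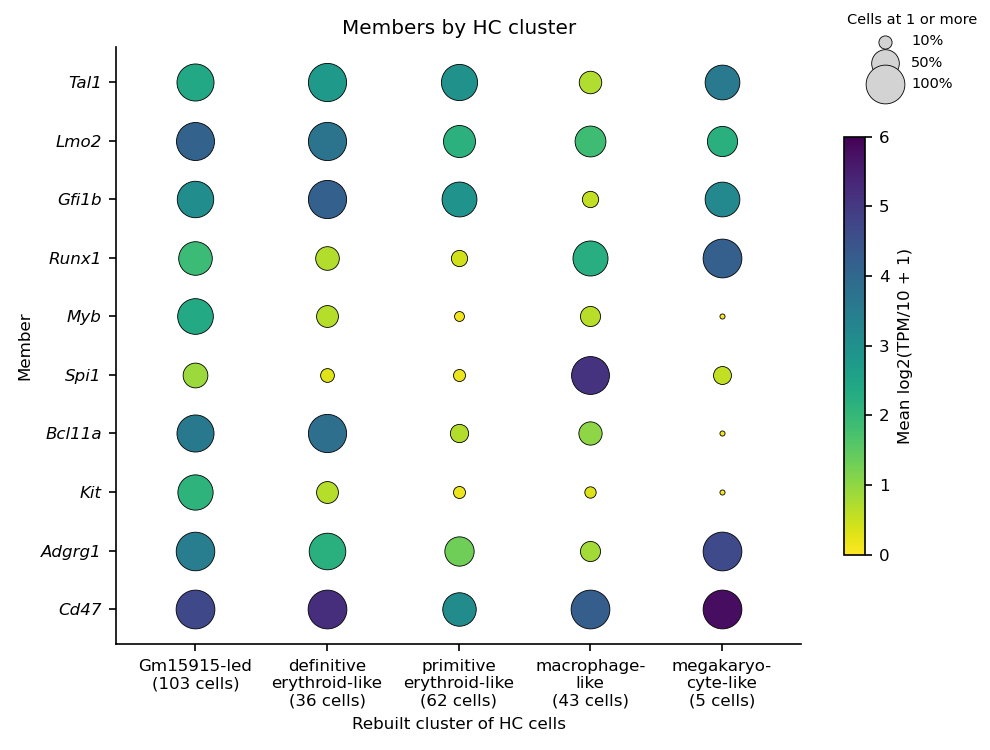
Members (vertical axis) in the 5 rebuilt HC clusters (horizontal axis). Colour gives the mean log2(TPM/10 + 1) over the cells of a cluster and dot area the percent of its cells at 1 or more. Spi1 is highest in the macrophage-like cluster, Myb and Kit in the Gm15915-led cluster, and Bcl11a is high in the Gm15915-led and definitive erythroid-like clusters.

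Pairs of members were compared over the 249 HC cells, which share libraries and differ in depth, so the coefficients are descriptions. Myb and Kit varied together, with Pearson r = 0.65, and 84 cells expressed both, of which 76 were in the Gm15915-led cluster. Spi1 ran opposite to Gfi1b (r = −0.58) and to Tal1 (r = −0.51). Spi1 and Gfi1b were expressed in the same cell in 50 of 249 cells, 36 of them in the Gm15915-led cluster and 5 in the macrophage-like cluster. Within the Gm15915-led cluster the Spi1 and Gfi1b coefficient was −0.13 and that of Myb and Kit 0.38, while that of Spi1 and Tal1 turned to 0.21.

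**Figure D3:**
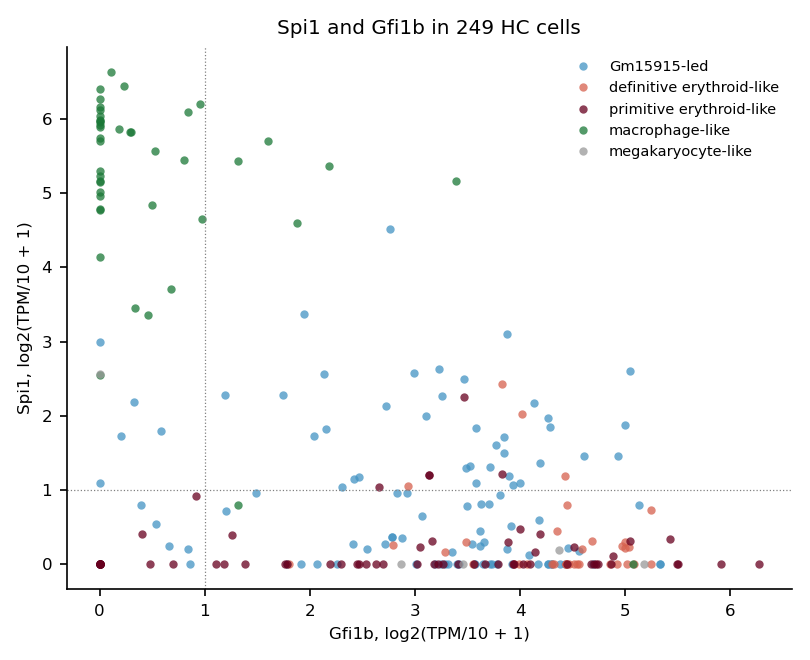
Spi1 (vertical axis) against Gfi1b (horizontal axis) in log2(TPM/10 + 1), 1 point for each of 249 HC cells, coloured by rebuilt cluster. Dotted lines mark 1 on the scale, and the upper right part holds 50 cells. Macrophage-like cells lie high on the Spi1 axis and erythroid-like cells low on it.

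The genes most like each member over HC cells were found among 10111 genes. Spi1 was followed by Cd53 (r = 0.87), Tyrobp (0.86) and Lst1 (0.85), and Runx1 by Plek (0.68), Rgs18 (0.64) and Zyx (0.64). Gfi1b was followed by Gata1 (0.58), Smim1 (0.56) and Cited4 (0.55), and Tal1 by Epor (0.55), Smim1 (0.51) and Cpox (0.51), a heme synthesis enzyme. Myb and Kit had the same leading pair, Gm15915 (0.70 and 0.67) and Ptprcap (0.69 and 0.66), and Ydjc (0.63) came next for Myb. Bcl11a was followed by Vamp5 (0.74) and Loxl2 (0.68), Lmo2 by Vamp5 (0.60), Gm15915 (0.55) and Ppp1r16b (0.50), and Adgrg1 by Muc13 (0.62), Vamp5 (0.61) and Ppif (0.60). Cd47 was followed by Cox7c (0.54), Rps21 (0.52) and Cox8a (0.51).

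The liver held 180 of the 249 HC cells, and HC cells of the liver were compared with those of the other organs in the same embryos. The 4 embryos of E10.5 and E11.5 had at least 3 cells in both sets, with 40 to 42 liver cells and 6 to 18 cells of other organs. Bcl11a, Lmo2, Gfi1b, Myb and Adgrg1 were higher in liver, so 5 of 10 members were called higher (median UMIs per cell 198059 to 606041 in liver and 210958 to 347294 in other organs). A call required a Benjamini-Hochberg adjusted p below 0.05 in limma over 12381 genes and a difference of at least 1. Of all genes, 1.91% were called higher and 0.743% lower in liver, and 0 members were called lower. The median difference over the members was 1.43, and 0.02 over all genes.

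Bcl11a showed the clearest separation. Its liver levels were 2.97 and 3.61 at E10.5 and 2.92 and 3.31 at E11.5, and its levels in the other organs of the same embryos were 0.62, 0.61, 0.53 and 0.85. Every liver value was more than 2 above every other value, and the difference was 2.55 ± 0.26 (SE; limma adjusted p = 0.00232). Without E10.5 embryo 1 or 2 the difference was 2.62 or 2.40, and the limma adjusted p of 0.184 or 0.211 no longer passed.

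Lmo2 in liver was at 3.86, 4.09, 3.66 and 3.23 (E10.5 embryos 1 and 2, then E11.5 embryos 1 and 2), against 1.95, 1.18, 1.82 and 2.66 elsewhere. Gfi1b was at 2.56, 2.87, 3.88 and 3.12 against 1.48, 1.72, 1.89 and 0.61. Myb, which fetal liver progenitors require, was at 2.24, 1.84, 0.78 and 1.77 against 0.42, 0.18, 0.02 and 0. For all of these the liver value was higher in 4 of 4 embryos, and the liver range lay above the range of the other organs. Adgrg1 was at 3.13, 2.99, 2.21 and 2.32 against 1.43, 1.21, 1.37 and 0.87, with the same separation. The differences were 1.80 ± 0.36 for Lmo2, 1.68 ± 0.37 for Gfi1b, 1.50 ± 0.26 for Myb and 1.44 ± 0.26 for Adgrg1 (SE; limma adjusted p = 0.0271, 0.0382, 0.0197 and 0.0212).

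Cd47 and Kit missed the threshold by little. Cd47 was at 4.33, 4.90, 5.41 and 4.77 in liver and 3.63, 2.47, 3.40 and 4.21 elsewhere, a difference of 1.42 ± 0.35 (SE; limma adjusted p = 0.0505). Kit was at 1.76, 2.25, 0.56 and 1.28 against 0.32, 0, 0.05 and 0.60, a difference of 1.22 ± 0.31 (SE; limma adjusted p = 0.0560). Both were higher in liver in 4 of 4 embryos, and for Kit the lowest liver value lay below the highest value elsewhere.

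Spi1 went the other way without passing the test. Its liver levels were 1.30, 1.01, 0.51 and 1.26, and those elsewhere 2.93, 3.03, 0.84 and 4.84. The liver was lower in 4 of 4 embryos, by 1.89 ± 0.67 (SE; limma adjusted p = 0.113), but the ranges overlapped. Tal1 was at 2.56, 2.12, 2.50 and 2.36 in liver and 1.66, 2.21, 2.60 and 1.09 elsewhere, a difference of 0.49 ± 0.35 (SE; limma adjusted p = 0.388). Runx1 was at 2.04, 1.69, 0.78 and 1.31 against 2.04, 1.99, 0.56 and 2.06, a difference of −0.21 ± 0.33 (SE; limma adjusted p = 0.715).

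With the embryo as a replicate block, which uses the pairing of both sets in an embryo, 859 genes in place of 328 were called. Cd47 (limma adjusted p = 0.0246), Kit (0.0242) and Spi1 (0.0201) were then called as well, and all 5 earlier calls were kept. In edgeR on summed UMIs, Bcl11a, Lmo2 and Myb were called, Spi1 was called lower (log2 difference −2.89, adjusted p = 0.0157), and Gfi1b (adjusted p = 0.203) and Adgrg1 (adjusted p = 0.211) were not. Without E10.5 embryo 1 or without E10.5 embryo 2, 0 genes of any kind were called in limma (1928 and 1864 at an unadjusted p under 0.05), and 792 and 882 without E11.5 embryo 1 or 2. Over these 4 fits Gfi1b differed by 1.41 to 1.88, Myb by 1.40 to 1.75, Adgrg1 by 1.33 to 1.65 and Lmo2 by 1.43 to 2.21.

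**Figure D4:**
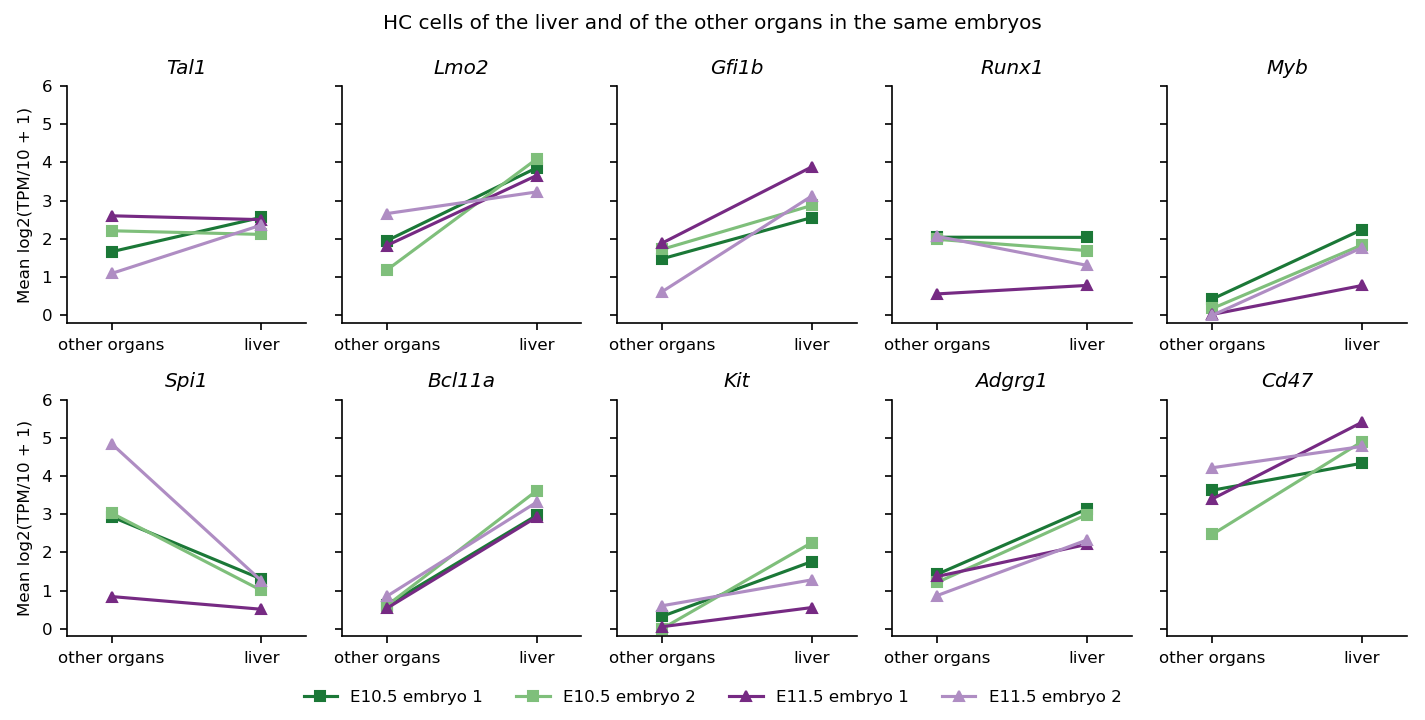
Level of each member in HC cells of the liver and of the other organs (horizontal axis), as mean log2(TPM/10 + 1) of an embryo (vertical axis). Lines join the 2 values of an embryo, for E10.5 embryos 1 and 2 and E11.5 embryos 1 and 2. For Bcl11a, Lmo2, Gfi1b, Myb, Adgrg1 and Cd47 all liver points lie above all points of the other organs, and Spi1 is lower in liver in each embryo.

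The makeup of the HC cells differed between liver and other organs, and its part in the differences above was not tested. Macrophage-like cells were 8 of 18, 5 of 10, 2 of 11 and 6 of 6 of the cells from other organs in the 4 embryos, against 3 to 6 of 40 to 42 liver cells. Over all 8 macrophage markers, the summed mean TPM was 372 to 2071 in liver and 3082 to 9396 elsewhere in these embryos, with none of the 8 at 0, and C1qb was called lower in liver (−3.03 ± 0.72, SE). Over the 6 hepatoblast markers, 5 were called higher in liver, led by Afp (3.09 ± 0.25, SE), and their summed mean TPM was 207 to 1135 in liver and 2.73 to 9.98 elsewhere, where 4 of the 6 were at 0 in each embryo. In an alternative chosen after seeing the data, macrophage-like cells were left out, which left 3 embryos with both sets. Bcl11a (2.90), Lmo2 (2.09) and Myb (1.53) were then called, as were Cd47 (2.22) and Kit (1.49), while Gfi1b (0.53, limma adjusted p = 0.394) and Adgrg1 (0.84, limma adjusted p = 0.0821) were not. The sign turned for Tal1 (−0.68), Runx1 (0.46) and Spi1 (0.25), which did not pass in either fit. Without macrophage-like cells the makeup still differed. In these 3 embryos, primitive erythroid-like cells were 7 of 18, 5 of 10 and 8 of 11 of all HC cells from other organs. They were 3 of 40, 3 of 42 and 14 of 42 of those from liver. The parts of this makeup and of hepatoblast RNA in these differences were not tested.

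Of the other lists, 0 of 27 tested hematopoietic transcription regulators were called in this comparison. Among receptors, Csf2rb was lower in liver (−1.29 ± 0.24, SE; limma adjusted p = 0.0245), and among the 8 ligands and partners, Col3a1, a ligand of Adgrg1, was lower (−1.08 ± 0.25, SE; limma adjusted p = 0.0405). Col3a1 is also a mesenchymal marker.

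Within the primitive erythroid-like cluster, cells from liver and other organs could be set side by side as a description. Cd47 was at 4.58 in 24 liver cells and 2.16 in 38 cells of other organs, Lmo2 at 3.03 and 1.62, and Bcl11a at 1.46 and 0.21. In embryos with at least 3 such cells, Cd47 in liver was 1.63, 3.02, 2.66 and 5.94, the last from 14 cells of E11.5 embryo 1, and 1.04 to 3.07 in 5 embryos elsewhere. Bcl11a in liver was 0, 1.16, 1.21 and 1.99 in the same order, against 0 to 0.45 elsewhere, and Lmo2 was 1.79, 1.75, 3.31 and 3.63 against 1.05 to 2.38. The ranges overlapped for all 3, and the highest liver value of each came from E11.5 embryo 1, which gave 14 of the 24 liver cells, at a median of 104420 UMIs. Hba-x in the cluster had a mean of 8.16 in liver and 11.91 elsewhere, and a median over cells of 6.08 and 11.80. The name of the cluster is therefore less certain for its liver cells. Whether they are of the same cell type as those of other organs was not tested.

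Single organs other than the liver held few HC cells, and their levels are given by organ as means over cells. In skin all 9 HC cells expressed Spi1, at a mean of 5.47, and 0 of 9 expressed Gfi1b, Kit or Adgrg1, which allows a share of up to 33.3%. All 9 fell in the macrophage-like cluster, and HC cells of forebrain and hindbrain were mostly primitive erythroid-like or macrophage-like. Organ and cluster makeup therefore cannot be told apart in these levels. In forebrain and hindbrain, with 17 cells each, Tal1 was at 2.22 and 2.90, Spi1 at 2.26 and 1.15, and Kit was expressed in 0 cells of either, which allows up to 17.6%. In 16 heart cells Tal1 was at 2.28, Gfi1b at 2.64 and Runx1 at 1.73. Myb was expressed in 2 of 16 heart, 2 of 9 skin, 1 of 17 forebrain, 0 of 17 hindbrain and 0 of 7 lung cells, against 107 of 180 liver cells.

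Change with day was tested in liver HC cells, in E9.5 embryo 3 and the 4 later embryos, all labelled HiSeq 4000. None of the 10 members passed the test, which asked for an adjusted p below 0.05 and a slope of at least 0.5 per day. Over 11641 genes, 0.0258% were called rising and 0.00859% falling, 4 genes in all in limma, with 1278 at an unadjusted p under 0.05 and 0 called in edgeR. A slope that misses the threshold in 5 embryos does not show that a member is steady. The 1 falling gene was the embryonic globin Hbb-y, at −0.998 ± 0.13 per day (SE; limma adjusted p = 0.0119). The median slope over the members was −0.18, and −0.04 over all genes.

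Adgrg1 had the steepest slope among the members. Its liver levels were 3.27 at E9.5, 3.13 and 2.99 at E10.5, and 2.21 and 2.32 at E11.5, so values were lower on each later day, with a slope of −0.55 ± 0.19 per day (SE; limma adjusted p = 0.319). Runx1 was at 1.88, then 2.04 and 1.69, then 0.78 and 1.31, with a slope of −0.48 ± 0.20 (limma adjusted p = 0.404). Cd47 was at 4.18, then 4.33 and 4.90, then 5.41 and 4.77, with a slope of 0.46 ± 0.18 (limma adjusted p = 0.378). The slopes of the other 7 ran from −0.32 for Spi1 to 0.42 for Gfi1b. None of 25 other regulators, 15 receptors and 8 ligands and partners tested was called in limma.

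The cluster makeup of liver HC cells changed over the same days. Definitive erythroid-like cells were 0 of 15 at E9.5, 0 of 40 and 1 of 42 at E10.5, and 20 of 42 and 15 of 41 at E11.5. The Gm15915-led cluster was 9 of 15, then 34 of 40 and 35 of 42, then 4 of 42 and 19 of 41. Within that cluster, Adgrg1 was at 4.05 in 9 cells of E9.5, 3.48 in 69 of E10.5 and 3.14 in 23 of E11.5, Gfi1b at 3.08, 2.94 and 3.52, and Bcl11a at 2.94, 3.63 and 3.81. In the fit restricted to this cluster no gene was called, and 872 had an unadjusted p under 0.05.

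Bcl11a and Adgrg1 are known in developing neurons, and both were described in NC cells of forebrain and hindbrain. Bcl11a in forebrain was at 0.33 and 0.40 at E9.5, 2.95 and 2.82 at E10.5, and 5.21 and 3.42 at E11.5. In hindbrain it was at 0 and 0, then 1.88 and 1.74, then 2.57 and 2.40. The E9.5 values lay below all later ones in both organs. Adgrg1 was at 2.16, 1.83, 2.31, 2.88, 3.69 and 3.23 in forebrain and at 1.78, 2.12, 3.01, 2.05, 3.01 and 3.56 in hindbrain, in the order of E9.5, E10.5 and E11.5 embryos 1 and 2. The E9.5 values of Adgrg1 lay below all later ones in forebrain and overlapped them in hindbrain.

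The slope of Bcl11a was 1.98 ± 0.23 per day in forebrain and 1.24 ± 0.23 in hindbrain (SE; limma adjusted p = 0.000201 and 0.0141). That of Adgrg1 was 0.73 ± 0.18 and 0.67 ± 0.18 (SE; limma adjusted p = 0.0111 and 0.0424). These 2 of 8 members tested were called rising in both organs, against 1.69% of 14200 genes in forebrain and 0.324% in hindbrain. Tal1 and Gfi1b were expressed in too few NC cells to be tested. The slopes of Bcl11a in forebrain and hindbrain differed by 0.73 ± 0.33 (SE; limma adjusted p = 0.698).

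Both E9.5 embryos with brain cells are labelled HiSeq 2500 and the later ones HiSeq 4000, so day and platform label cannot be told apart between E9.5 and E10.5. Among HiSeq 4000 embryos alone, the Bcl11a slope was 1.43 in forebrain and 0.68 in hindbrain (limma adjusted p = 0.461 and 0.720), and that of Adgrg1 was 0.86 and 0.75 (limma adjusted p = 0.540 and 0.619). Without either E9.5 embryo or E11.5 embryo 1, the hindbrain call of Bcl11a was lost (limma adjusted p = 0.108, 0.142 and 0.0690) while its slope was 1.16, 1.16 and 1.29, and the forebrain call was kept in all 6 such fits. Those 3 fits called 0, 3 and 20 hindbrain genes in all. The forebrain call of Adgrg1 was lost without the same embryos (0.0565, 0.102 and 0.0897), and its hindbrain call also without E11.5 embryo 2 (0.201, 0.185, 0.107 and 0.199). In edgeR the forebrain call of Adgrg1 was kept (adjusted p = 0.0186) and that of Bcl11a was not (adjusted p = 0.0589), nor was either in hindbrain. The neuronal genes Tubb3 (2.39 and 1.40 per day) and Dcx (1.74 and 1.24) were also called rising in forebrain and hindbrain. Of 23 other regulators tested, Cbfa2t3 was called rising in forebrain (0.66 ± 0.13 per day, SE) and Mecom falling (−0.50 ± 0.10), and none was called in hindbrain.

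**Figure D5:**
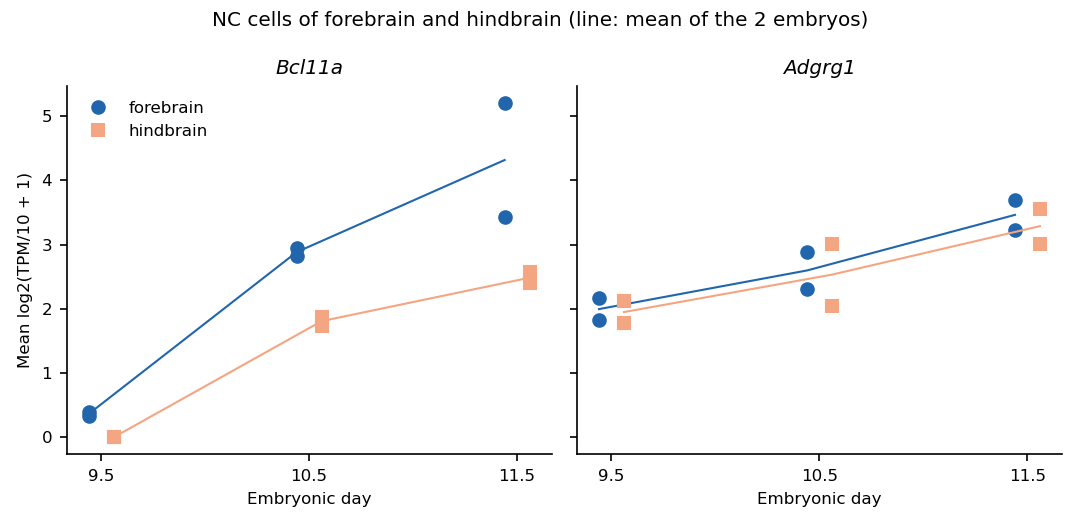
Bcl11a (left) and Adgrg1 (right) in NC cells by embryonic day (horizontal axis), as mean log2(TPM/10 + 1) of an embryo (vertical axis). Circles are forebrain and squares hindbrain, shifted slightly to either side of the day, and lines join the means of the 2 embryos of a day. Bcl11a lies at 0 to 0.40 at E9.5 and at 2.40 to 5.21 at E11.5.

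Between the brain regions with day in the model, 0 of 8 members tested were called, against 0.606% of genes. Bcl11a was higher in forebrain by 1.09 ± 0.30 (SE; limma adjusted p = 0.0980), and in 6 of 6 embryos, which did not pass (0.102 with the replicate block). Adgrg1 differed by 0.10 ± 0.20 (SE; limma adjusted p = 0.896). Sox6, a partner of Bcl11a in definitive erythroid cells, was called higher in forebrain by 1.14 ± 0.22 (SE; limma adjusted p = 0.0127).

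In epithelial cells, Kit and Adgrg1 followed the organ. Kit averaged 1.15 ± 0.36 in intestine (SD, n = 7), where 37.6% of cells expressed it, against 0.23 ± 0.24 in liver, 0.12 ± 0.14 in lung and 0.11 ± 0.09 in skin (SD, n = 6 each). Adgrg1 averaged 1.53 ± 0.61 in lung (SD, n = 6) and 1.41 ± 0.63 in intestine (SD, n = 7), within their spread, then 0.68 ± 0.28 in liver and 0.29 ± 0.19 in skin. Cd47 averaged 2.82 ± 0.47 in liver and 0.999 to 1.67 in the other 3 organs. Among MC cells, Bcl11a was highest in lung (2.38 ± 0.67, SD, n = 6), and Kit in intestine (0.67 ± 0.45, SD, n = 7). These organ values were not tested.

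Tal1 and Lmo2 act in endothelium too, and MC cells positive for the endothelial genes Pecam1 and Cdh5 were compared with MC cells below 1 for both. Of 875 MC cells, 26 were positive for both, 19 of them from heart, and 812 were below 1 for both. Tal1 was expressed in 11 of the 26 and 13 of the 812. Only E9.5 embryos 1 and 2 gave 3 or more positive cells, with 6 and 14.

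Tal1 in the positive cells was at 1.14 and 1.30, and in the other MC cells of 7 embryos at 0.01 to 0.12. The difference was 1.17 ± 0.06 (SE; limma adjusted p = 9.9e-07), and Tal1 was the 1 of 10 members called, against 3.73% of 15726 genes called higher. The fit pools the spread of the positive means with that of the 7 other means near 0, so this SE rests mainly on the latter. Lmo2 was at 0.36 and 0.76 against 0.08 to 0.32, a difference of 0.41 ± 0.09 (SE; limma adjusted p = 0.0182), and Kit at 0.44 and 0.69 against 0.06 to 0.23, a difference of 0.42 ± 0.07 (SE; limma adjusted p = 0.00396), both below the size asked for. Gfi1b was expressed in 1 of the 26 cells, and Adgrg1 in 1.

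With the embryo as a block, which pairs the sets in 2 embryos, no gene was called in limma, and Tal1 differed by 1.20 (adjusted p = 0.485). In edgeR, Tal1 (adjusted p = 0.0200) and Lmo2 (adjusted p = 0.0404) were called and Kit was not (0.0898). Both positive means are of E9.5 and of the HiSeq 2500 label, while 5 of the 7 other means are not, so day, platform label and the endothelial genes cannot be told apart without the block. Of 28 other regulators tested, 9 were called higher, led by Mecom (2.04), Lyl1 (1.90) and Hhex (1.81), and 3 of 12 receptors were, Cd34 (4.23), Cd93 (3.80) and Itga2b (1.01). Kitl was higher by 1.82. The embryonic globins Hba-x (2.48), Hbb-y (2.29) and Hbb-bh1 (2.06) were higher in these cells too, and their part was not tested. Of the 30 MC cells that expressed Tal1, 17 expressed Pecam1 and 11 both endothelial genes.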

How the data were processed

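Single cells dissociated from 8 organs of 7 embryos were picked by hand, and their RNA was counted with unique molecular identifiers (UMIs) after 3′ end sequencing. Per the labels, magnetic and flow sorting steps are also named, with no antigen given. The authors aligned reads to mm10 with TopHat2 (2.0.12), after CASAVA (1.8), and counted UMIs with HTSeq (version not given in the sources used here). The deposited values, which the authors call TPM, are UMIs per 1000000 UMIs of a cell, with no correction for gene length, equal to CPM. Whole UMIs were recovered for 100% of values (tolerance 0.05 UMIs), and cell totals equalled those of the study's cell table in 1916 of 1916 cells. The 32 tables hold 23154 genes. Major groups come from that table, in which the study kept 1819 cells and gave 1815 a group. Doublets were not called or removed here. Some HC cells of the same organ and embryo had equal Gfi1b and Spi1 levels, such as 3.13406 and 1.19912 in neighbouring forebrain cells of E10.5 embryo 1. Whether such cells are copies of each other was not checked, and all were kept.

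The 10 members and all gene lists were chosen with earlier results of these data known. Named genes were all members, the 3 genes most correlated with each member over HC cells among genes expressed in at least 5% of them, and, in each list and comparison, at most 3 called genes in each direction with the largest difference. Values were put on log2(TPM/10 + 1) and averaged over the cells of an embryo where there were at least 3. The limma test (3.58.1, with trend) took every gene that 3 or more of the cells in a comparison expressed, and p-values were adjusted over all of them by the Benjamini-Hochberg method. The embryo is the replicate. A call needed an adjusted p below 0.05 and a difference of at least 1, or 0.5 per day for a slope. For edgeR (4.0.16, quasi-likelihood), recovered UMIs were summed over cells. HC cells were clustered with Ward's method on 15 principal components of 1500 variable genes, members left out, and the same cells gave the genes that define the clusters. Statistics used R (4.3.3), Python (3.11.15), numpy (2.4.6), pandas (2.3.3), scipy (1.17.1) and scikit-learn (1.9.0), plots matplotlib (3.10.9), and the scripts were tested on simulated data.

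Both sets of cells taken from an embryo belong to 1 animal, which pairs them. Over genes, deviations of paired sets correlated at 0.0825, 0.245, 0.518 and 0.307 for HC cells of E10.5 and E11.5 embryos 1 and 2. For NC cells they correlated at 0.541, 0.703, −0.03, −0.04, 0.427 and 0.399, from E9.5 to E11.5. The main fits have no block, and the blocked fit was an alternative, beside leaving out each embryo, log2(TPM + 1), gene filters, 5 cells per mean, thinning, HiSeq 4000 embryos alone and edgeR. The blocked fit was not made for the day slopes. Depth of a grouped cell was 20326 to 2524348 UMIs (median 306642). Intervals are Wilson 95% intervals, and the limit for a share of 0 is 3 cells. Both cover counting error only. Lmo2 and Spi1 promoters were not analysed here, and 1 result among the correlated genes is not reported here.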

Additional observations from a re-analysis of the deposited data

Results flagged for a closer look

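In 9 of 96 groups of 4 to 7 embryo means, 1 embryo stood apart from the rest by Dixon's criterion. For independent, normally distributed values chance flags about 1 in 20 groups. The groups here span several days, share cells and often lie near 0, so that rate need not hold for them. The values are log2(TPM/10 + 1).

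Among HC cells of organs other than liver, Runx1 was at 0.56 in E11.5 embryo 1, whereas the nearest of the other 3 embryos was at 1.99. Of the 11 cells behind this mean 8 were primitive erythroid-like and 2 macrophage-like, and the part of this makeup was not tested.

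Among NC cells, Kit was at 0.94 in E11.5 embryo 1, with the next embryo at 0.47. Runx1 was at 0.10 in E10.5 embryo 2 over all NC cells (0.0954, next 0.0277) and in its hindbrain (0.0998, next 0.0181). Spi1 was at 0.65 in forebrain of E10.5 embryo 2, with the next at 0.16. Lmo2 was at 0.71 in hindbrain of E10.5 embryo 1, with the next at 0.34.

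Among EC cells, E11.5 embryo 2 had the highest Spi1 level, 0.31 with the next at 0.12, and the lowest Adgrg1 level, 0.43 with the next at 0.94. Lmo2 in MC cells below 1 for Pecam1 and Cdh5 was at 0.32 in E9.5 embryo 3, with the next at 0.18.

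The 101 cells without a major group, with a median of 10306 UMIs, lie outside all comparisons. Gfi1b was at 10 TPM or more in 8 of them (7.92%, Wilson 95% interval 4.07 to 14.9), where the highest share in NC, EC or MC cells was 1.14%. Spi1 was so in 8 as well (7.92%), where the highest was 3.26%. At the median depth of these cells a single UMI passes 10 TPM, which it does not in most grouped cells, so the shares are not comparable. Among EC cells of at least 50000 UMIs, the share with 1 UMI or more was 11.49% for Gfi1b and 16.2% for Spi1 at full depth. After thinning to 50000 UMIs it was 2.03% and 5.74%. Each 7.92% lies below the share at full depth and above the thinned share. No share was taken at the depth of the cells without a group, so this does not decide whether they hold more of either gene.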

How the results depend on the processing

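Leaving out 1 embryo gave 0 to 54 genes for the HC liver slope (4 reported), 0 to 882 for HC liver against other organs (328), 49 to 81 for NC forebrain against hindbrain (86), 557 to 1788 for the forebrain slope (1719), 0 to 642 for the hindbrain slope (541) and 597 to 1546 for the endothelial MC comparison (685). In the same order of comparisons, log2(TPM + 1) gave 36, 741, 205, 2880, 1189 and 1378 genes, and edgeR gave 0, 960, 200, 854, 28 and 1891. Without a gene filter, counts were 0, 152, 43 and 204 for the HC slope, the organs, the brain regions and the hindbrain slope. Thinning gave 7, 196 and 277 for the HC slope, the organs and the hindbrain slope. HiSeq 4000 embryos alone gave 11 for the brain regions and 0 and 3 for the forebrain and hindbrain slopes. Within the Gm15915-led cluster, the HC slope had 0 calls. With the replicate block, which uses the pairing, the organs gave 859, the brain regions 73 and the endothelial MC comparison 0. In these comparisons the block changed no other call of a member than those named above. No blocked fit was made for the day slopes, so their calls were not checked with the pairing. For the organs, the split of higher and lower calls was 236 and 92, and 351 and 609 in edgeR or 368 and 373 with log2(TPM + 1). For the forebrain slope it was 240 and 1479, and 419 and 435 in edgeR.

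In alternatives chosen after seeing the data, the organs gave 199 calls over all embryos with 3 cells in either set and 998 without macrophage-like cells. Over all embryos, Gfi1b was lost (1.003, limma adjusted p = 0.248), and Cd47 (1.60, 0.0132) and Kit (1.24, 0.0352) were gained. Without a gene filter, Gfi1b (limma adjusted p = 0.0797) and Lmo2 (0.0600) were lost. Signs turned for uncalled values: Runx1 to 0.18 over all embryos, and Tal1 to −0.68, Runx1 to 0.46 and Spi1 to 0.25 without macrophage-like cells. For the HC slope, leaving out 1 embryo gave −0.77 to 0.17 for Myb and −1.09 to 0.066 for Kit (the highest without E11.5 embryo 1) and −0.17 to 0.55 for Bcl11a (the lowest without E9.5 embryo 3), and Tal1 turned to −0.10 and Myb to 0.23 within the Gm15915-led cluster. Adgrg1 between brain regions ran from −0.052 to 0.26, below 0 without E10.5 embryo 2 or E11.5 embryo 1. The cause of these changes was not tested. The 4 members whose HC means lay above all others were 5 without E9.5 embryo 1, and the members highest in the cluster with most liver cells were 3 or 4.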
